A study of Mus musculus with 20 samples.

Results

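Ribosomal protein transcripts were examined in the livers of 20 mice from a cross that separates gonadal type from sex chromosome complement. Members were all probes whose single gene symbol in the platform annotation began with Rpl or Rps and a number, with Rplp, or with Mrpl or Mrps and a number, leaving out the Rps6k kinases. Probes of one gene were averaged, which gave 78 genes from 219 probes, out of 21556 features from 23574 probes on the array. Of these, 48 genes (183 probes) carried the name of a cytosolic ribosomal protein and 30 genes (36 probes) that of a mitochondrial one. The cytosolic names comprised 40 subunits, 6 pseudogene symbols (Rpl10a-ps2, Rpl12-ps1, Rpl21-ps15, Rpl36-ps8, Rps2-ps9 and Rps24-ps2), the retrocopy paralog Rpl10l and Rps19bp1, which is named for binding Rps19 and is no subunit. Large subunit names made up 34 of the 48 cytosolic and 20 of the 30 mitochondrial members. The label therefore held for 40 of the cytosolic names in the strict sense, and the other 8 are described under their own names. Not every ribosomal protein was among the members, since probes that named several genes or had no symbol fell outside the rule.

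All animals were C57BL/6J mice. They ate chow with 4% fat up to gonadectomy at an age of 8 weeks, and their livers were taken at 12 weeks, following 12 h without food. In this cross the Y chromosome lacks the testis-determining gene Sry (written Y-), and an autosomal Sry transgene is inherited apart from the sex chromosomes. The 4 groups of 5 animals were XX Sry and XY-Sry (gonadal males, with the transgene) and XX and XY- (gonadal females, without it). Every male carried the transgene and no female did, so that gonadal type and the transgene itself cannot be told apart, and a difference 4 weeks after gonadectomy concerns animals without gonads. The promoter that drives the transgene is not named in the labels. Each liver was hybridised on its own 2-colour array against a common liver pool, and all values below are log2 ratios of liver over pool. A ratio carries no absolute level, so that levels of different genes cannot be ranked against each other, and hepatocyte markers could be followed between livers but not checked for their abundance.

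Cytosolic ribosomes make nearly all cellular protein, and in hepatocytes this includes most plasma proteins. Their subunit proteins are encoded by nuclear genes whose mRNAs commonly start with a C and a run of pyrimidines (the terminal oligopyrimidine, or TOP, motif), through which translation is tuned to nutrients by mTOR signalling. Mitochondrial ribosomes make the few respiratory chain subunits encoded in mitochondrial DNA, and their proteins are also encoded in the nucleus, under factors such as NRF1, GABP and the coactivator PGC-1alpha.

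Among the 20 arrays, 4 had log2 ratios with an SD above 0.3 over all features (XX 2, XX 6, XY- 3 and XY- 12, numbered by animal), all of gonadal females. The library labelled XY- 30 had a log2 ratio of -3.90 for the Y-linked gene Eif2s3y and -3.16 for Kdm5d, whereas Eif2s3y lay between 0.57 and 1.34 in the other XY livers and between -5.28 and -2.46 in the XX livers. Calls, and differences that these arrays moved, are given with and without them. No member value was missing or at the limit of the deposited scale. The labels gave no litter or batch.

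The annotated start sites of the members were searched for the TOP motif. RefSeq start sites (GRCm38.p6) were matched for 33 of 48 cytosolic and 25 of 30 mitochondrial members. The first transcribed base was a C followed by at least 4 pyrimidines in 7 of 33 cytosolic members (21.2%), in 0 of 25 mitochondrial members and in 2.67% of 17492 protein-coding genes of the same table. When the motif could begin up to 5 bases either side of the annotated start, the shares were 42.4%, 20% and 21.5%. The counts thus depend on the exact annotated base, and they do not give the share of members whose mRNAs carry the motif. Printed below are 30 bases around the start, 15 before and 15 from it, for all 7 genes and, as a contrast, for Mrps31, the mitochondrial member with the smallest p-value for gonadal type, which lacks the motif there, with the pyrimidine run in capitals.
Rpl14, chr9:120571502-120571531, plus strand: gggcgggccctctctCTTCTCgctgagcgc
Rpl15, chr14:18270972-18271001, minus strand: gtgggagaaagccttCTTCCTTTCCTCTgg
Rpl28, chr7:4792950-4792979, plus strand: ccgcctctcgtgtctCTCTTTCCgtctccg
Rpl38, chr11:114668565-114668594, plus strand: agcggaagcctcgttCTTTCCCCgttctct
Rplp2, chr7:141447636-141447665, plus strand: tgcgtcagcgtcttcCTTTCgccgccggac
Rps18, chr17:33955651-33955680, minus strand: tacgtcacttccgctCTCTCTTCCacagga
Rps6, chr4:86857353-86857382, minus strand: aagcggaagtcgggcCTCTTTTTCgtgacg
Mrps31, chr8:22411325-22411354, plus strand: cggaatccaaaaggagcggaacagtgcagg
The runs were 5 (Rplp2) to 13 (Rpl15) bases long. A longer window, the 250 bases before the start, was searched on both strands for exact letters. The ETS-type motif CCGGAAG, which GABP recognises, was in 33.3% of cytosolic, 20% of mitochondrial and 10.2% of all protein-coding starts. GGGCGG, the SP1 core, was in 48.5%, 52% and 45.8%. AAGATGGC (YY1) was in 3.03%, 12% and 1.77%, and TATAAA in 6.06%, 12% and 13.7%. The palindromic NRF1 motif was in 0%, 8% and 1.21%. These are matches of letters and not measured sites.

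Gonadal type was addressed by subtracting the mean of gonadal females from that of gonadal males over both sex chromosome complements. In limma, with Benjamini-Hochberg adjustment over all features and a threshold of 0.05, 1 of 48 cytosolic members passed (Rpl14) and 1 of 30 mitochondrial members passed (Mrps31), both higher in males. Over all features 808 passed, 3.75%, of which 316 (1.47% of features) were higher and 492 lower in males. The cytosolic share called was 2.08% and the mitochondrial share 3.33%, both close to that background. In neither class did any member have males and females that did not overlap, against 74 of 21555 features with complete values (0.343%).

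Rpl14 encodes a protein of the large cytosolic subunit. In XX Sry livers its log2 ratios were -0.088, 0.089, 0.13, 0.23 and 0.26, and in XY-Sry livers -0.072, 0.057, 0.17, 0.19 and 0.23. In XX livers they were -0.39, -0.20, -0.17, -0.099 and 0.010, and in XY- livers -0.15, -0.031, -0.026, -0.0052 and 0.028. Of the 10 males, 8 lay above every female, and XX Sry 9 and XY-Sry 5 lay within the female range. The difference was 0.22 ± 0.056 on the log2 scale (SE, n = 20 arrays), 1.17-fold, with an adjusted p of 0.0316 in limma. It was 0.29 ± 0.079 between XX Sry and XX and 0.15 ± 0.079 between XY-Sry and XY-, with adjusted p of 0.104 and 0.571 in limma, and the test of the difference between these effects gave 0.14 ± 0.11 (limma, unadjusted p = 0.218). The call was lost without the 4 wide arrays (0.22, limma, adjusted p = 0.0973), where 3.85% of all features passed. It was also lost, at adjusted p of 0.0507 to 0.071 in limma, when any one of XX Sry 18, XX Sry 31, XX Sry 32, XY-Sry 19, XY-Sry 27, XX 21 or XY- 3 was left out.

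Mrps31 encodes a protein of the small mitochondrial subunit. In XX Sry livers its log2 ratios were -0.071, 0.0040, 0.13, 0.16 and 0.21, and in XY-Sry livers -0.057, 0.057, 0.059, 0.11 and 0.15. In XX livers they were -0.38, -0.35, -0.19, -0.16 and -0.11, and in XY- livers -0.44, -0.12, -0.090, 0.025 and 0.18. All 10 males lay above the female median and 8 of 10 females lay below every male, but XY- 30 and XY- 3 lay among the males. The difference was 0.24 ± 0.065 (SE, n = 20 arrays), 1.18-fold, with an adjusted p of 0.0475 in limma. Between XX Sry and XX it was 0.32 ± 0.092, and between XY-Sry and XY- 0.15 ± 0.092 (limma, adjusted p = 0.124 and 0.618), and the test of the difference between these effects gave 0.17 ± 0.13 (limma, unadjusted p = 0.206). Without the 4 wide arrays it was 0.25, with an adjusted p of 0.0151 in limma. The call was kept in 6 of the 20 fits that left out 1 animal (XX Sry 32, XY-Sry 14, XX 29, XY- 12, XY- 30 or XY- 3), and was lost without any of the other 14 animals (limma, adjusted p up to 0.0934). Both genes were read by a single probe.

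**Figure D1:**
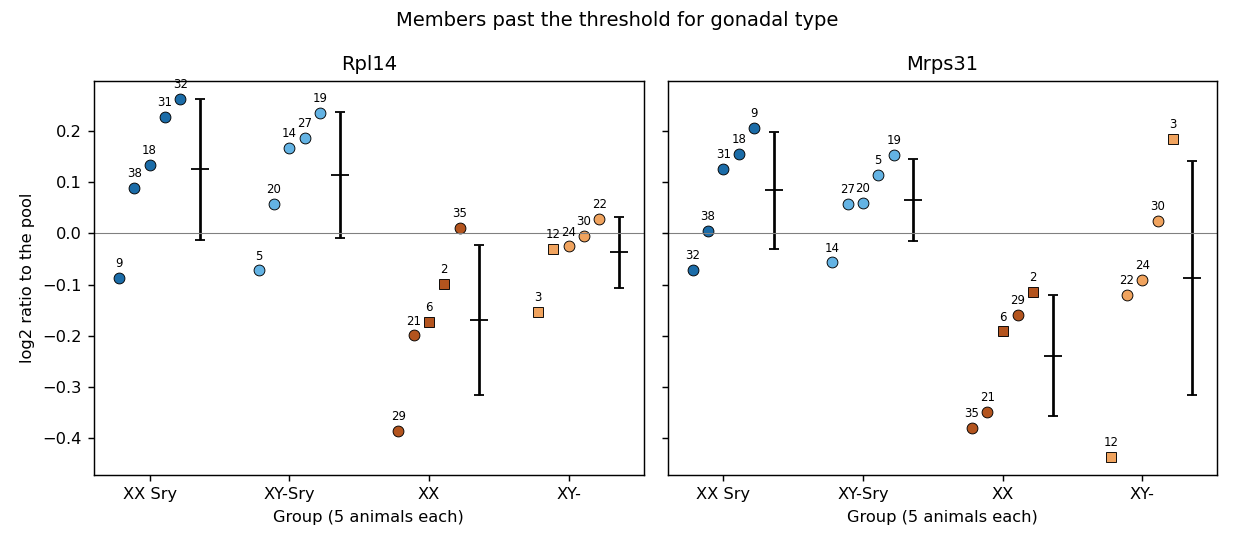
Log2 ratio to the pool of Rpl14 (left) and Mrps31 (right) in each of the 20 livers, by group, numbered by animal, with squares for the 4 wide arrays. Bars give the mean and SD of 5 animals. Of the 10 males, 8 lay above every female for Rpl14, and 8 of 10 females lay below every male for Mrps31.

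Few members came close to the threshold. An unadjusted p under 0.05 was reached by 7 of 48 cytosolic members (14.6%), all higher in males, and by 7 of 30 mitochondrial members (23.3%), 6 higher and 1 lower, against 17.8% of all features (9.4% higher, 8.39% lower). Over both classes together it was 14 of 78, or 17.9%. The direction was uneven: 38 of 48 cytosolic and 20 of 30 mitochondrial members lay above 0, where 53.7% of all features did. The median difference was 0.053 over cytosolic and 0.055 over mitochondrial members, and 0.0075 over all features. The members of a class share arrays and their values are correlated between animals, so these counts are no independent votes. Without the 4 wide arrays the cytosolic median was 0.061 and the mitochondrial one 0.0020, with 39 of 48 and 15 of 30 members above 0. Between XX Sry and XX, 39 of 48 cytosolic and 25 of 30 mitochondrial members lay above 0 (medians 0.063 and 0.082, against 0.021 over all features, of which 57.8% lay above 0), and no member passed, where 0.645% of features did. Between XY-Sry and XY- it was 31 of 48 and 18 of 30 (medians 0.037 and 0.054, against -0.0034 over all features, 48.7% above 0), again with no member called and 0.158% of features called.

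**Figure D2:**
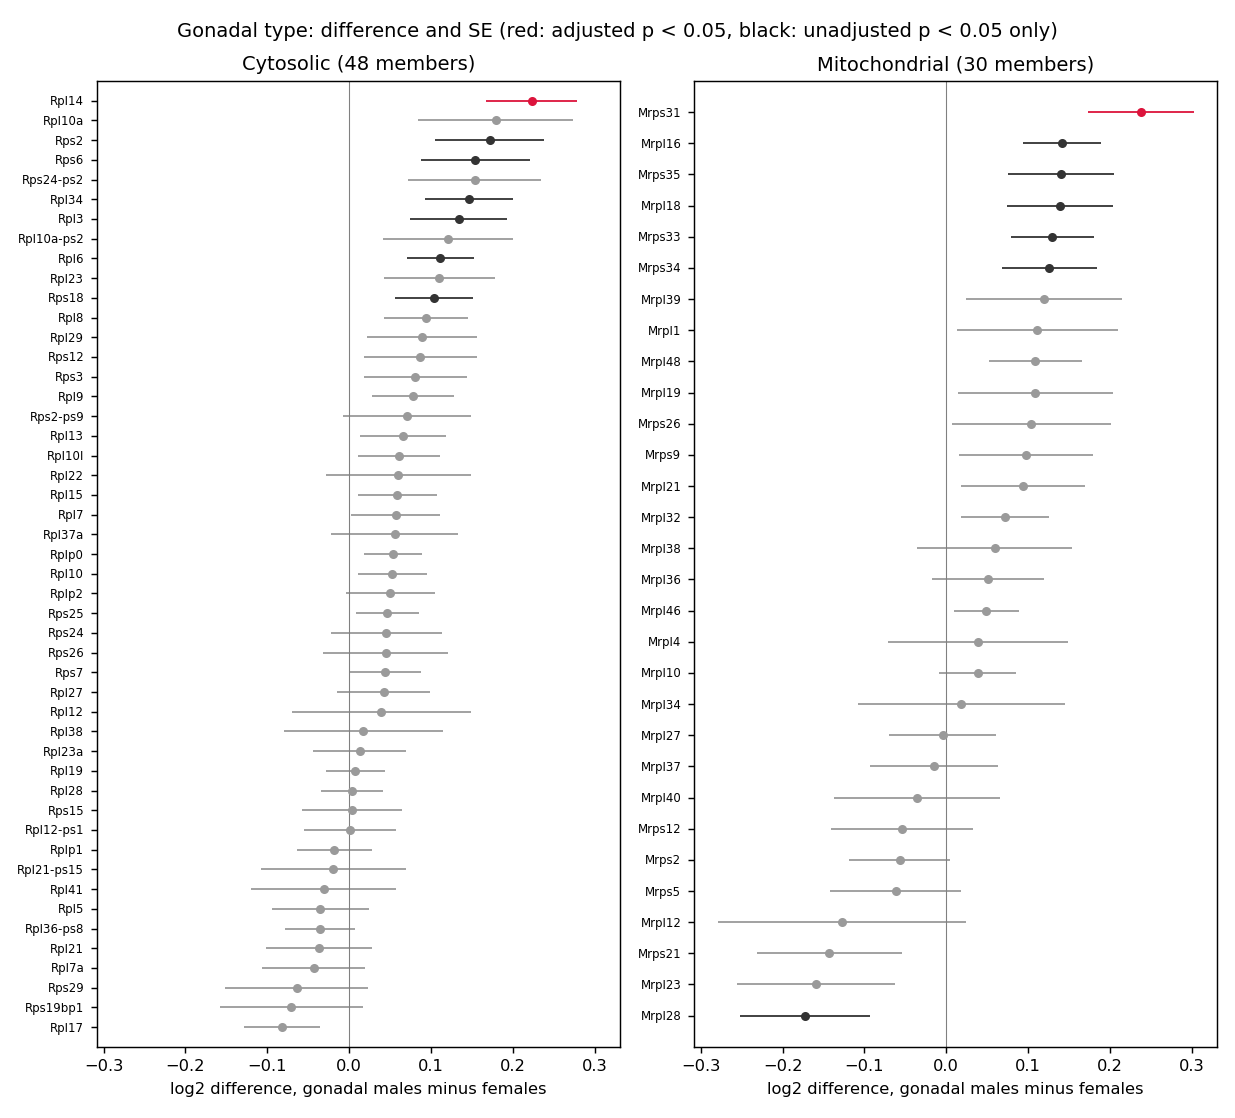
Difference in log2 ratio between gonadal males and gonadal females for the 48 cytosolic (left) and 30 mitochondrial (right) members, with limma's SE over 20 arrays. Red marks Rpl14 and Mrps31, the members past an adjusted p of 0.05, black the 12 others with an unadjusted p under 0.05 and grey the rest.

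By role, the cytosolic small subunit names held 12 of 14 members above 0 (median 0.059) and the large subunit names 26 of 34 (median 0.053). The members named here and in the next sentences were chosen after their values were seen. Rps6, the small subunit protein phosphorylated by S6 kinases, differed by 0.15 ± 0.067 and Rps2, at the mRNA entry side of the small subunit, by 0.17 ± 0.067. Rpl3, which lies near the peptidyl transferase centre, differed by 0.13 ± 0.059, Rpl6 by 0.11 ± 0.041, Rpl34 by 0.15 ± 0.054 and Rps18 by 0.10 ± 0.047, with adjusted p of 0.144 to 0.258 in limma for these 6. Rps2 lay at 0.090 to 0.15 in XX Sry and at -0.0041 to 0.16 in XY-Sry livers, but its 2 lowest values, -0.39 and -0.37, were those of the wide arrays XY- 12 and XY- 3, and XX 2 followed at -0.25. Leaving out the 4 wide arrays gave 0.088 for Rps2, 0.061 for Rps6 and 0.095 (Rps18) to 0.15 (Rpl34) for the other 4. Of the 6, Rps6 and Rps18 began with the TOP motif, as did Rpl14, while Rpl3 had no matched start site. The other members with the motif at a matched start differed by 0.059 (Rpl15), 0.050 (Rplp2), 0.017 (Rpl38) and 0.0040 (Rpl28).

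The stalk proteins, which recruit elongation factors to the large subunit, did not pass. Rplp0, a common reference gene, differed by 0.054 ± 0.035, Rplp1 by -0.018 ± 0.046 and Rplp2 by 0.050 ± 0.054. Rpl10, the X-linked gene for a late joining large subunit protein, differed by 0.053 ± 0.042, and its paralog Rpl10l by 0.061 ± 0.050. Rpl22 differed by 0.060 ± 0.088 and Rpl7 by 0.057 ± 0.054. Rps19bp1, the binding partner, differed by -0.071 ± 0.088. None of these passed, and the adjusted p in limma was 0.483 or higher for each.

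On the mitochondrial side, the small subunit names held 6 of 10 members above 0 (median 0.10) and the large subunit names 14 of 20 (median 0.050). The large subunit member Mrpl16 differed by 0.14 ± 0.048, with 8 of 10 males above the female median (limma, adjusted p = 0.108). Mrps33, Mrps34 and Mrps35, all of the small subunit, differed by 0.13 to 0.14, as did Mrpl18 of the large subunit. Mrpl28 ran the other way, at -0.17 ± 0.079 (limma, adjusted p = 0.258), with 9 of 10 females and 3 of 10 males above 0, and was at -0.11 without the 4 wide arrays and at -0.23 without XY- 30. Mrpl12, which is also known for binding the mitochondrial RNA polymerase, differed by -0.13 ± 0.15. These were likewise chosen after their values were seen, apart from Mrpl12.

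Taken as a mean over its members, each class overlapped between all groups. The cytosolic mean was 0.023 ± 0.064 in XX Sry and 0.020 ± 0.081 in XY-Sry livers (SD, n = 5 each), against -0.053 ± 0.090 and -0.0086 ± 0.0087 in those of XX and XY- females. It was lowest in XX 29 (-0.17) and XY-Sry 5 (-0.11) and highest in XY-Sry 20 and XX Sry 32 (both 0.11). The mitochondrial mean was 0.042 ± 0.040, -0.00020 ± 0.069, -0.018 ± 0.080 and -0.017 ± 0.12 in the same order. Its extremes were both wide arrays of XY- livers, -0.21 in XY- 12 and 0.11 in XY- 3. The difference between the classes, cytosolic minus mitochondrial, was 0.00029 ± 0.070 in males and -0.013 ± 0.10 in females (SD, n = 10 each), a gap smaller than the spread between animals. By animal it ran from -0.13 in XX 29 to 0.20 in XY- 12.

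**Figure D3:**
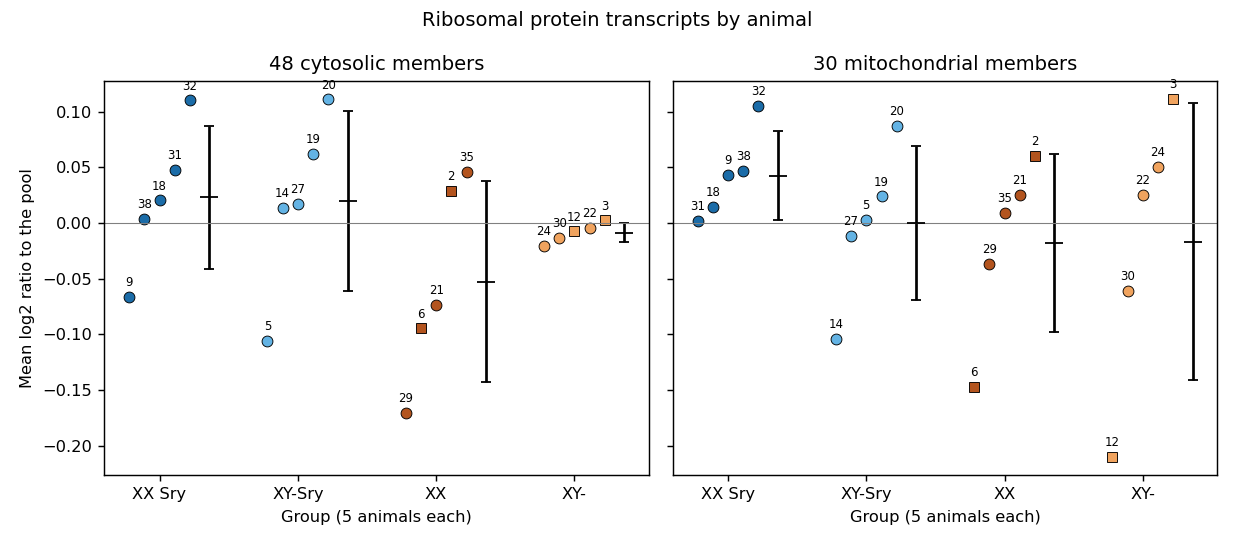
Mean log2 ratio to the pool over the 48 cytosolic (left) and 30 mitochondrial (right) members in each liver, by group, numbered by animal, with squares for the 4 wide arrays and the mean and SD of 5 animals beside them. All groups overlap, and the cytosolic means of XY- livers lie within -0.020 and 0.0024 while their mitochondrial means span -0.21 to 0.11.

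Some cell markers moved with gonadal type. Of 12 Kupffer cell and macrophage markers, 6 were lower in males (median -0.85 over the list), where 2.28% of all features were called lower. Their mean log2 ratio ran from -0.94 to -0.55 in XX Sry, -0.72 to 0.37 in XY-Sry, -0.12 to 0.57 in XX and -0.27 to 1.52 in XY- livers, with XY- 12 highest. Of 12 T and NK lymphocyte markers, 5 were called lower in males, while 4 lay above 0 (median -0.14, range -1.70 to 0.18). Means over this list ran from -0.23 to -0.094, -0.32 to -0.083, 0.052 to 0.42 and -0.045 to 0.66 in the same order of groups. Of 7 hepatocyte markers none passed, and their means ran from -0.16 (XX 29) to 0.20 (XY-Sry 5). Ratios to a pool have no zero, so no marker could be called absent. In whole liver, fewer cells of a type and less RNA per cell cannot be told apart, and the part of these cells in the ribosomal protein differences was not tested.

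The probes of one gene did not always give the same answer. More than 1 probe was present for 33 members, 29 cytosolic and 4 mitochondrial, and the mean correlation between probes of a gene over the 20 arrays had a median of 0.44. It was above 0.9 for 5 members (Rpl12, Rpl38, Rps29, Rpl41 and Mrpl23) and below 0 for 4 (Rpl19, Rplp0, Rpl7 and Mrps33). Probes of 17 members differed in sign for gonadal type. Of 219 probes, 2 passed for gonadal type, those of Rpl14 and Mrps31, where 3.39% of all single probes did. For Rps2, 10 of 11 probes to one sequence record lay above 0, 9 of them at an unadjusted p under 0.05, with a mean of 0.21, while both probes to another record averaged -0.035. For Rps6, 5 probes gave 0.13 to 0.21 and the probe to a second record 0.017. The 2 probes of Mrps33 gave 0.26 and -0.0045, so its average described neither. Rpl29, with 20 probes, ranged from -0.13 to 0.25. In contrast, the 7 probes of Rpl12 stayed between -0.0054 and 0.075.

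**Figure D4:**
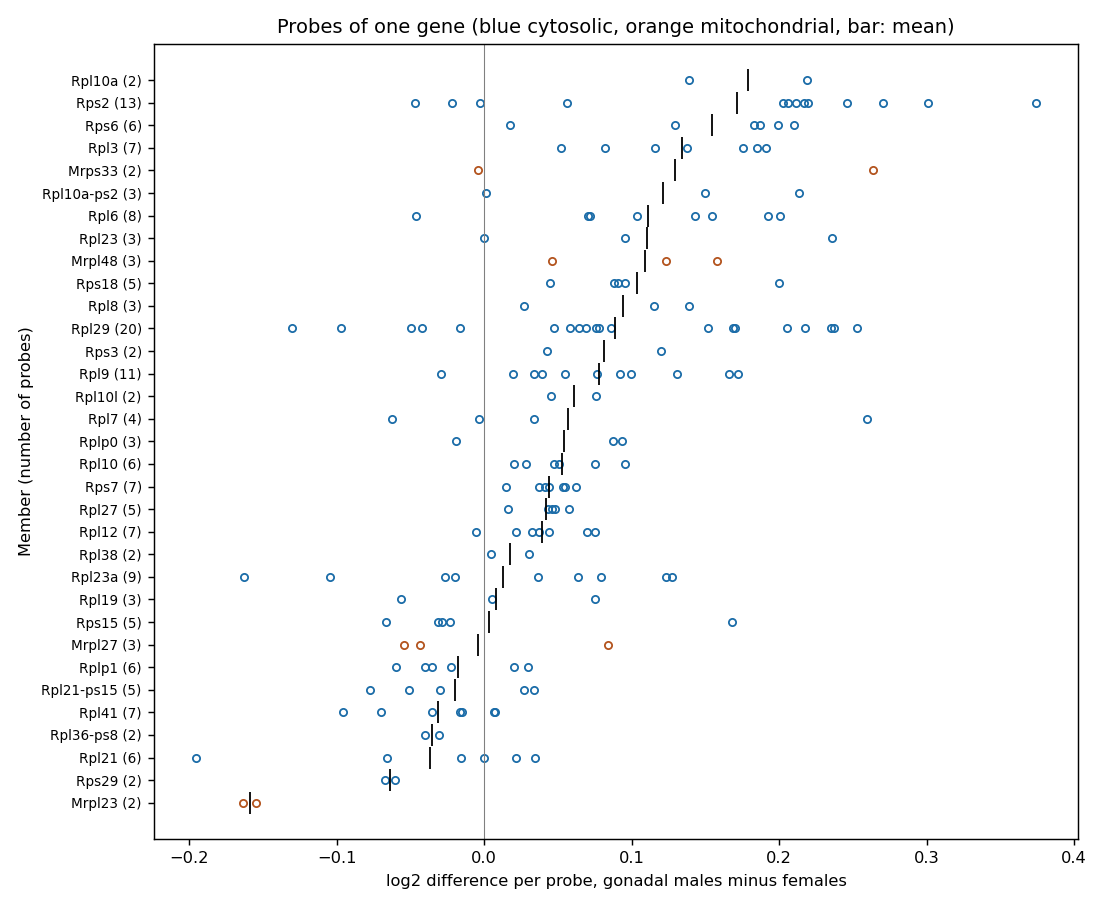
Difference in log2 ratio between gonadal males and gonadal females for each probe of the 33 members with more than 1 probe (probe number in brackets), blue for cytosolic and orange for mitochondrial, with a bar at the mean. The probes of Rps2 spread from -0.047 to 0.37 and those of Mrps33 from -0.0045 to 0.26, while both probes of Mrpl23 lie near -0.16.

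Near-identical copies complicate the cytosolic names, since a short probe can take up RNA of both parent and copy. For 6 parent and copy pairs the log2 ratios were correlated over the 20 arrays, with Benjamini-Hochberg adjustment over the 6. Rpl10 and Rpl10l gave Pearson's r = 0.92 and Spearman's rho = 0.91, Rpl10a and Rpl10a-ps2 r = 0.93 and rho = 0.91, and Rpl21 and Rpl21-ps15 r = 0.92 and rho = 0.89. All 3 pairs reached the smallest p the 100000 permutations allow, 1e-05 (adjusted p = 2e-05, two-sided permutation test), and without the 2 animals farthest from the median of the parent r was 0.90, 0.92 and 0.90. Rps24 and Rps24-ps2 gave r = 0.63 and rho = 0.63 (adjusted p = 0.0042 and 0.0053, permutation test), and r = 0.63 without those 2 animals. Rps2 and Rps2-ps9 gave r = 0.49 but rho = 0.18 (adjusted p = 0.034 and 0.44, permutation test), and r fell to 0.21 without the 2 farthest animals, on which the relation rested. Rpl12 and Rpl12-ps1 ran against each other, with r = -0.45 and rho = -0.58 (adjusted p = 0.047 and 0.011, permutation test), and r = -0.42 without the 2 farthest. Among members that are not copies of each other, only Rpl27 and Rpl37a reached a value as high, with r = 0.94. Apart from that pair, the first 3 copy pairs had the highest r of all pairs of members, and Rpl27 and Rps26 followed with r = 0.90. A correlation of this size was thus not confined to copies. Whether a probe took up RNA of both genes of a pair was not tested, and the values of these parents and copies are uncertain in that respect.

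Sex chromosome complement was addressed by subtracting XY from XX livers over both gonadal types. No member of either class passed in limma, and 6 of 21556 features did (0.0278%). An unadjusted p under 0.05 was reached by 2 of 48 cytosolic and 0 of 30 mitochondrial members, against 5.06% of features, and both were lower in XX livers, as were 2.63% of features. Median differences were -0.0036 and 0.011, against -0.0090 over all features. Without XY- 30, 1 cytosolic member reached an unadjusted p under 0.05 in limma upwards and 4 downwards, and 1 mitochondrial member upwards. The share of all features under 0.05 is not given for that fit, so these counts have no background to be read against. Its medians were -0.012 and 0.00077, with 15 of 30 mitochondrial members above 0, where 21 were over all arrays. Rpl37a, a zinc-binding protein of the large subunit, came nearest. Its log2 ratios were -0.23, -0.22, -0.10, -0.10 and -0.0067 in XX Sry and -0.43, -0.29, -0.23, -0.20 and 0.13 in XX livers. They were -0.16, 0.028, 0.12, 0.16 and 0.16 in XY-Sry and -0.18, -0.17, -0.091, 0.21 and 0.34 in XY- livers. Of the XX livers all but XX 2 were below 0, and the XY livers were on both sides. The difference was -0.21 ± 0.078 (SE, n = 20 arrays; limma, adjusted p = 0.914, unadjusted p = 0.0148), and -0.23 ± 0.078 without XY- 30, where 13 features passed (0.0603%) and still no member. Without the 4 wide arrays it was -0.17 ± 0.057, and the difference of Rpl37a for gonadal type, 0.055 ± 0.078 over all arrays, was then 0.19 ± 0.057 (limma, adjusted p = 0.0795).

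Rpl15, the other cytosolic member under 0.05, differed by -0.11 ± 0.048 (limma, adjusted p = 0.914), and all 5 XY-Sry livers were above 0 for it, as were XY- 3, XY- 12, XX Sry 9 and XX 21. Rpl27 followed at -0.11 ± 0.057. Those with the smallest p in the other direction were Rpl3 (0.096 ± 0.059), Rps2 (0.071 ± 0.067, but -0.021 without the 4 wide arrays) and Rpl5 (0.051 ± 0.059), the last a carrier of the 5S ribosomal RNA. On the mitochondrial side Mrpl37 (0.16 ± 0.078), Mrpl21 (0.12 ± 0.076) and Mrps33 (0.076 ± 0.051) led upwards, and Mrps2 (-0.068 ± 0.062), Mrpl19 (-0.11 ± 0.095) and Mrps31 (-0.066 ± 0.065) downwards. Without the 4 wide arrays Rpl15 differed by -0.058, Rpl27 by -0.089, Rpl3 by 0.059, Mrpl37 by 0.053 and Mrpl21 by 0.13. Without XY- 30 these values were -0.13, -0.13, 0.12, 0.18 and 0.13. Of the genes on the X chromosome, Rpl10 differed by -0.047 ± 0.042 and the pseudogene symbol Rpl21-ps15 by -0.032 ± 0.089. Rpl10 lay at -0.091 to 0.089 in XX Sry, -0.18 to 0.055 in XX, -0.082 to 0.13 in XY-Sry and -0.089 to 0.13 in XY- livers, so that XX and XY livers overlapped.

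The interaction asks whether the effect of gonadal type differed between XX and XY livers. In limma 0 of 21556 features passed (0%), with 556 at an unadjusted p under 0.05 (2.58%). Among members 1 of 78 reached an unadjusted p under 0.05, Mrps2 of the small mitochondrial subunit, at 0.28 ± 0.12 (limma, unadjusted p = 0.0365), where 1.29% of features did so in that direction. Its log2 ratios were -0.069, -0.012, 0.040, 0.042 and 0.13 in XX Sry, -0.16, -0.10, -0.064, -0.020 and 0.12 in XY-Sry, -0.25, -0.23, -0.045, 0.052 and 0.20 in XX, and -0.083, 0.092, 0.17, 0.27 and 0.31 in XY- livers. XY- livers were highest as a group, and the groups overlapped. Without XY- 30 the value was 0.27, with an unadjusted p of 0.0505. Rpl3 came next among cytosolic members (0.23 ± 0.12), with all 5 XX Sry livers above 0, at 0.043, 0.12, 0.17, 0.21 and 0.23, and 1 of 5 above 0 in each of the other groups. Rpl10a followed at 0.25 ± 0.19. The smallest p in the other direction belonged to Rpl22 (-0.18 ± 0.18), Rps19bp1 (-0.14 ± 0.18) and Rpl15 (-0.072 ± 0.097) among cytosolic and to Mrpl1 (-0.21 ± 0.20), Mrpl18 (-0.11 ± 0.13) and Mrpl28 (-0.12 ± 0.16) among mitochondrial members. The medians were 0.045 and 0.048, against 0.013 over all features. Without the 4 wide arrays, an unadjusted p under 0.05 in limma was reached by 2 cytosolic members upwards and 1 downwards. Of the mitochondrial members 5 then reached it, all upwards. No member passed in that fit. The share of all features under 0.05 is not given for it, so these counts have no background to be read against.

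Animals differed more than groups. The SD over all 20 arrays had a median of 0.14 over cytosolic and 0.18 over mitochondrial members, and 0.16 over all features. Among members read by 1 probe the medians were 0.14 for 19 cytosolic and 0.19 for 26 mitochondrial genes. Cytosolic members with the largest SD were Rpl12 (0.24), Rpl10a (0.23), Rpl38 (0.21), Rps29 (0.20) and Rpl22 (0.20), and those with the smallest Rpl19 (0.064), Rplp0 (0.071) and Rps25 (0.074). Rpl12, which lies at the base of the stalk, ran from -0.45 in XX 29 and XY-Sry 5 to 0.41 in XX Sry 32. For Rpl19 and Rplp0, the probes did not follow each other (mean r of -0.23 and -0.19), and an average of such probes has a smaller SD than its parts. Mitochondrial members with the largest SD were Mrpl12 (0.34), Mrpl34 (0.28), Mrpl4 (0.24), Mrpl1 (0.23) and Mrpl23 (0.23), and those with the smallest Mrpl46 (0.077), Mrpl10 (0.099) and Mrpl32 (0.12). Mrpl12 ran from -0.86 in XX 6 to 0.54 in XX 35, so that both ends lay within 1 group. Mrpl34 and Mrpl4 were highest in the wide array XY- 3, at 0.58 and 0.67.

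Pairs of members followed each other from animal to animal more within a class than between classes. The mean Pearson correlation over 20 arrays was 0.20 for the 1128 pairs of cytosolic members, 0.17 for the 435 mitochondrial pairs and 0.071 for the 1440 mixed pairs, against 0.012 over all pairs of features. Without the 4 wide arrays these means were 0.27, 0.089, 0.060 and 0.0062, so the mitochondrial value depended on those arrays while the cytosolic one did not fall. Taken as deviations from group means they were 0.19, 0.17, 0.044 and 0.012. Several cytosolic members share sequence with copies, and among the 19 cytosolic members of 1 probe the mean was 0.11. These values describe pairs on shared arrays and carry no test.

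Other genes of the translation machinery were followed with lists chosen with earlier results of these data known. Of 28 measured translation factors and TOP mRNAs, 3 rose in males and none fell: Eif4e, the cap-binding protein, by 0.28 ± 0.063, Naca, a ribosome-associated chaperone subunit, by 0.23 ± 0.057, and Eif3j1, a subunit of initiation factor eIF3, by 0.42 ± 0.11 (limma, adjusted p = 0.0195 to 0.0346). The list's median was 0.14, with 26 of 28 above 0 and 14 at an unadjusted p under 0.05. Of 28 ribosome biogenesis genes 3 rose, the processing factors Wdr75 (0.20 ± 0.051), Wdr12 (0.15 ± 0.038) and the nucleolar helicase Ddx21 (0.14 ± 0.040), with adjusted p of 0.0336 to 0.0499 in limma, a median of 0.14, 24 above 0 and 15 at an unadjusted p under 0.05. Over all features 3.75% were called, 1.47% as higher in males. An unadjusted p under 0.05 was reached by 17.8% of features, and 53.7% lay above 0. The counts of called genes in these lists were not firm. Without the 4 wide arrays they were 0 and 1. Leaving out 1 animal moved the first to 1 without XX Sry 18, XX Sry 31, XX Sry 32, XY-Sry 19, XY-Sry 27 or XX 2, to 5 without XX 29 and to 9 without XY- 30. The second fell to 0 without XX Sry 18, XX Sry 9, XX Sry 31, XY-Sry 19, XY-Sry 27, XX 2 or XY- 24 and to 1 without XX 6, and was 7 without XX 29 and 6 without XY- 12.

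In the other lists no gene passed for gonadal type. Of all features 53.7% lay above 0, with a median of 0.0075. Of 9 RNA polymerase I genes 7 lay above 0 (median 0.11), with the subunits Polr1e at 0.15 ± 0.043 and Polr1b at 0.14 ± 0.049 (limma, adjusted p = 0.0511 and 0.133). Of 18 genes that control growth and translation 12 lay above 0 (median 0.017). The 2 at an unadjusted p under 0.05 were the mTOR inhibitor Tsc2, at -0.21 ± 0.077, and the mTOR activator Rheb, at 0.22 ± 0.10 (limma, adjusted p = 0.137 and 0.255). Whether mTOR activity differed was not tested. Of 13 regulators of mitochondrial biogenesis all 13 lay above 0 (median 0.095), with Tfb2m, a mitochondrial transcription factor, at 0.28 ± 0.084 and Ppargc1a, which encodes PGC-1alpha, at 0.67 ± 0.22 (limma, adjusted p = 0.0752 and 0.0962). The 9 measured genes of the mitochondrial translation list, not all of them translation factors, had a median of 0.053. Mief1, in that list but not a translation factor, was at 0.15 ± 0.045. The 8 mitochondrial aminoacyl-tRNA synthetases had a median of -0.013 and the 8 genes of the mitoribosome assembly list one of 0.0039. Yars2, a synthetase that both lists hold, differed by 0.20 ± 0.064, and the assembly GTPase Gtpbp10 by 0.30 ± 0.10. The synthetase Lars2 differed by -0.21 ± 0.14 for sex chromosomes. Of ribosomal proteins with other names, Rpsa differed by 0.11 ± 0.055 for gonadal type and 0.12 ± 0.055 for sex chromosomes, and Dap3, of the small mitochondrial subunit, by -0.13 ± 0.062 and 0.14 ± 0.062. No gene of any of these lists passed for sex chromosomes or the interaction.

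**Figure D5:**
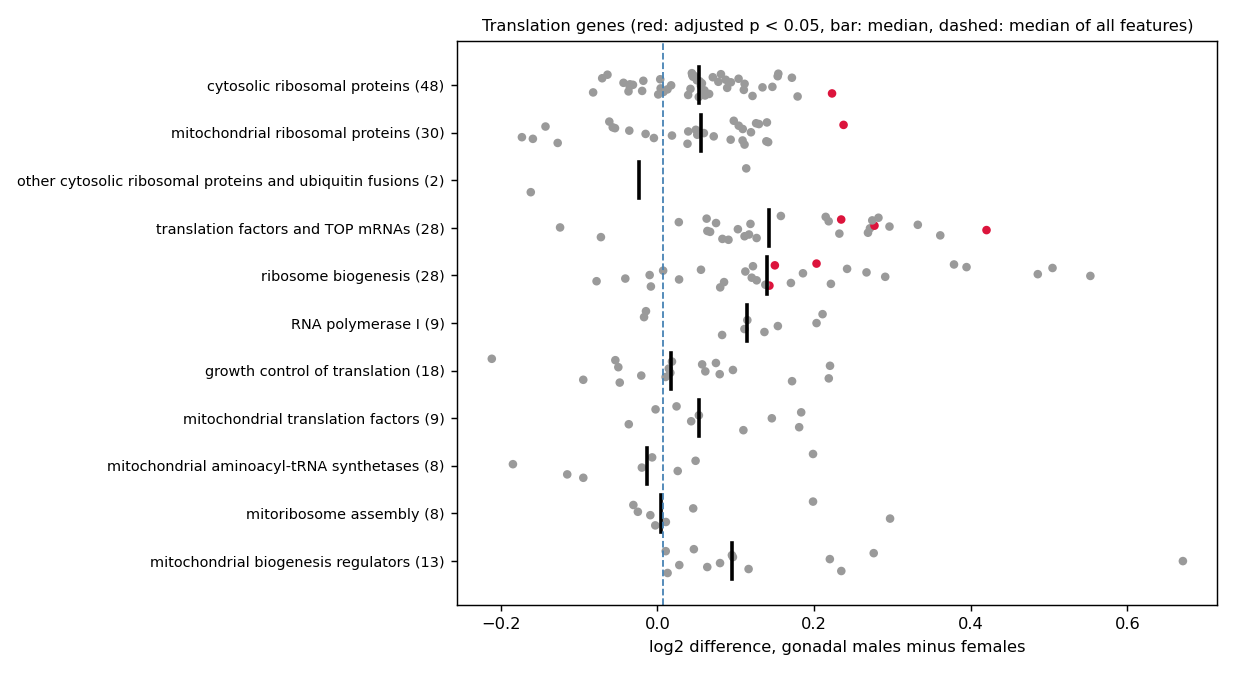
Difference in log2 ratio between gonadal males and gonadal females for each gene of the ribosomal protein classes and of the translation lists with more than 1 measured gene (number in brackets), with a bar at each list's median and a dashed line at the median of all features, 0.0075. Red marks genes past an adjusted p of 0.05, 1 in each ribosomal protein class and 3 in each of the lists for translation factors and ribosome biogenesis.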

How the data were processed

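Liver RNA of 20 mice was measured on 2-colour arrays, with liver in Cy5 and a common pool in Cy3 per the labels. The values deposited by the authors were log10 ratios for 23574 probes, limited at a size of 2. Neither labels nor headers gave log base or direction. Base 10 and liver over pool were read from Y-linked genes, and another base would scale all differences alike. How background and dyes were corrected is not given in the labels or headers. Titles called the pool 17 mice, the design text all samples.

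Values were converted to log2. Probes were named through the platform annotation and RefSeq (GRCm38.p6), and probes joined by symbol, also where a platform record is of another species. limma 3.58.1 in R 4.3.3 fitted means of 4 groups over all 20 arrays (lmFit, eBayes, Benjamini-Hochberg over 21556 features). No intensity filter applied. The fit was tested on simulated data. Tables were made with Python 3.11.15.

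Members and lists were chosen with earlier results of these data known. Named genes were label checks, X-linked members, paralogs, stalk proteins, Rps19bp1, Mrpl12, called members (where none, the 3 smallest p each way), the 5 largest and 3 smallest SD per class, and called or leading list genes. Marker lists for B cells, endothelium, stellate cells, cholangiocytes, erythroid cells, acini, adipocytes and proliferating cells held 1, 0, 1, 0, 1, 0, 0 and 1 called genes for gonadal type. The measured genes numbered 6, 6, 7, 2, 5, 3, 4 and 9. The calls for B cells, stellate cells and erythroid cells were lower in males, and that for proliferating cells was higher. Over all features 2.28% were called lower and 1.47% higher. Alternatives left out 1 animal, the 4 wide arrays, XY- 30 or these together (the last chosen after seeing the data), or used array weights, array medians, quantile normalization, robust eBayes, no limited values, an additive model or single probes, and class medians were also taken as means and without pseudogene symbols, paralogs and Rps19bp1. Arrays carry no counts, so that their number limits the precision. Proteins were not analysed here. One start site sequence is not reported here.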

Additional observations from a re-analysis of the deposited data

Results flagged for a closer look

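Over 160 sets of 5 animals (37 members, both class means and their difference, each in 4 groups), the highest or lowest liver stood far from the other 4 in 5 cases. Chance alone gives about 1 in 20 groups, so such cases were no more frequent than that. Mrpl21 was at 0.35 in XX Sry 32, against 0.0015 to 0.094 in the other XX Sry livers. Rps25 was at 0.12 in XX Sry 9, against -0.033 to 0.0053. Among XY- livers, Mrpl4 was at 0.67 in XY- 3, against -0.34 to -0.097. Mrps33 was at -0.35 and Rplp2 at 0.27 in XY- 12, against -0.059 to 0.015 and -0.19 to -0.068. XY- 3 and XY- 12 are among the 4 wide arrays.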

How the results depend on the processing

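No paired analysis was possible because no animal number occurs in more than 1 group. Most values were counted as kept: 715 of the counts, medians and class differences, while 93 moved. Among single genes 718 were counted as kept, 23 lost the threshold and 1 reversed. A class value that stayed near 0 counted as kept even where its sign changed. Leaving out 1 animal, the sex chromosome median ran from -0.024 to 0.015 over cytosolic and from -0.0047 to 0.042 over mitochondrial members. Genes that never passed had no call to lose. The cytosolic count of 1 called for gonadal type fell to 0 without the 4 wide arrays, also with XY- 30 left out too, and to 0 to 1 when 1 animal was left out; the mitochondrial count of 1 was likewise 0 to 1. The sex chromosome difference of Rps2 reversed to -0.021 without the 4 wide arrays (limma, adjusted p = 0.933). Features called for gonadal type were 1554 with array weights and 391 to 1129 leaving out 1 animal (391 without XY-Sry 19, 402 without XX Sry 31, 479 without XX Sry 18, 491 without XX 2, 531 without XY-Sry 27). The split was 240 higher and 464 lower with array medians subtracted and 426 and 764 with quantile normalization. For sex chromosomes they were 0 without the 4 wide arrays, 12 with array weights, 14 without the 4 wide arrays and XY- 30, and 2 to 13 leaving out 1 animal (13 without XY- 30, 9 without XX 2, at most 4 without any other). Translation factors called were 0, 7 and 5 without the 4 wide arrays, with array weights and with quantile normalization, 0 without the wide arrays and XY- 30, and 1 to 9 leaving out 1 animal. Ribosome biogenesis genes were 1, 8, 5 and 1 in the same order, 5 with the additive model and 0 to 7 leaving out 1 animal. Counts of 0 became 1 for RNA polymerase I (wide arrays out, array weights, quantile normalization), for synthetases and assembly genes (wide arrays out, array weights) and for biogenesis regulators (array weights). Leaving out 1 animal gave 0 to 1 for polymerase I (1 without XX Sry 9, XY-Sry 14, XX 29, XY- 12 or XY- 3), growth control (XX 6 or XY- 30), synthetases (XX 2) and assembly (XX 29 or XX 2), and 0 to 2 for biogenesis regulators (2 without XX 29, 1 without XY- 30). The causes were not tested. Limits are 5 animals a group, ratios without intensities, members that rest on 1 probe, and the spread between animals. The SD over animals had a median of 0.15 over all members, larger than the median size of their differences for gonadal type, 0.063.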
